A study of Mus musculus with 18 samples.

Results

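Day 8 was compared with day 3 of a mouse stem cell conversion from primed to naive pluripotency, 3 libraries against 3 of the 18 sequenced. The members were chosen by label: D8 replicates 1 to 3 and D3 replicates 1 to 3. The study, whose title concerns Cpt1a and lipid remodelling, holds 6 groups of 3 libraries: primed EpiSC at day 0, D3, D5, D8, the converted naive cells (rES) and reference embryonic stem cells (ESC). Both groups carry the cell type label transient, the cell line label stem cell and the tissue label mouse embryo. The labels used here give no strain, genotype, medium or inducing agent for either group. They do not say whether a group's libraries are separate cultures. Each p-value therefore speaks of the variation among libraries, which may be technical. That variation was estimated over all 18 libraries, so standard errors and p-values do not measure the spread within D8 alone. The comparison spans 2 steps of the course and asks how the early and the late intermediate differ.

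Primed stem cells resemble the epiblast after implantation and depend on FGF and Activin signals, whereas naive stem cells resemble the epiblast before implantation and are held by LIF and STAT3. Both kinds use the transcription factors OCT4 (gene Pou5f1) and SOX2, and naive cells add factors such as ESRRB, KLF4, TFCP2L1 and NANOG. Trophoblast, the lineage that builds the placenta, is set by other factors, among them CDX2, GATA3, HAND1 and GCM1. CPT1A loads long-chain fatty acids onto carnitine, the step that admits them to mitochondria for beta-oxidation.

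The 6 libraries held 58362230 to 101607352 deposited counts, D8 replicate 2 being the deepest. Values below are in CPM, counts scaled to a total of 1000000 per library, after scaling of library composition. On the log scale, libraries of the same day correlated at 0.974 to 0.984 and libraries of different days at 0.857 to 0.864, over genes, which are not independent replicates. The RNA came from whole samples, so fewer cells of a type and less RNA per cell cannot be told apart. As for the label stem cell, Pou5f1 averaged 27.6 ± 10.8 CPM at D3 and 93.2 ± 45.8 CPM at D8 (SD, n = 3), against 331 ± 63.1 CPM in EpiSC and 329 ± 2.43 CPM in ESC. Both days thus lay below the pluripotent groups in this defining gene, and markers of several other lineages, described below, were abundant.

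Of 17545 genes tested, 6227 (35.5%) were called higher at D8 and 5580 (31.8%) lower. A call is an adjusted p below 0.05 in edgeR's quasi-likelihood test with Benjamini-Hochberg adjustment. Genes called and at least 2-fold different numbered 3899 higher (22.2%) and 2667 lower (15.2%). The median log2 difference over all genes, D8 minus D3, was 0.07, and the groups did not overlap in 12286 genes (70.0%). With library totals alone as the scale the balance turned, with 5766 higher and 6100 lower, or 48.6% of calls higher against 52.7%. Every list below is read against these shares, since most genes were called; the lists were not tested as sets.

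The 12 genes with the largest fitted log2 rises, among those called without overlap and with at least 10 CPM, had no count in any D3 library. Their rank therefore depends on how the fit treats 0. Symbols that begin with Gm and a digit or end in Rik were left out of the ranking. Where a group has no count, a fold is given as a lower bound from a floor of 12 counts per library. Rpl10l, a ribosomal protein gene known from the male germline, had 51.4, 55.2 and 91.9 CPM at D8, at least 360-fold higher than the D3 floor. Of the other 11, Hormad1, Sohlh2 and Fkbp6 act in germ cells or meiosis and rose at least 135-fold, at least 125-fold and at least 113-fold. Ooep of the egg rose at least 110-fold, the interferon-induced Ifit3 and Parp12 rose at least 140-fold and at least 117-fold, and the elastic fibre gene Fbln5 rose at least 111-fold. Rpl39l rose at least 108-fold. Dmrtc1c1, Dmrtc1c2 and Hba-a1, the remaining members of the 12, have near-identical copies whose reads the counting may have split. Genes with D3 counts also rose far: Gjb2, described below, rose 280-fold.

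The same rule gave the 12 largest falls. Msx1, a homeobox gene that responds to BMP, had 119.7, 116 and 119 CPM at D3 and 0, 0.977 and 0.189 CPM at D8. It was 0 in 1 D8 library and under 1 CPM in the others, a log2 difference of -8.04 ± 0.55 (SE; edgeR adjusted p = 2.5e-09). Spry4, a feedback inhibitor of ERK signalling, had 50.4, 46.3 and 42.7 CPM at D3 and 0.309, 0.305 and 0.22 CPM at D8, 167-fold lower. Wnt6 had 108, 124 and 113 CPM at D3 and 0.537, 0.702 and 0.911 CPM at D8, 160-fold lower. Ngfr, the low-affinity neurotrophin receptor, fell 108-fold, and Lfng, a modifier of Notch receptors, fell 65.9-fold. The homeobox gene Dlx2 fell 92.7-fold. Vgf, Prokr2, Hapln1, Arhgap36 and Etv4 were also among the 12. D8 and D3 libraries overlapped in none of these 12 genes, which the selection required.

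In absolute terms the largest gains were in Peg10, Gjb2, Slc2a1, Bsg and Psap. Peg10, a retrotransposon-derived imprinted gene needed in the placenta, had 9436, 7854 and 6723 CPM at D3 and 16540, 16270 and 11020 CPM at D8. Slc2a1, the glucose transporter GLUT1, rose from 783 ± 68.8 CPM to 3186 ± 766 CPM and Bsg, a chaperone of lactate transporters, from 482 ± 45.7 CPM to 2275 ± 259 CPM (SD, n = 3). The largest losses were in Pkm, Hsp90ab1, Phlda2, Pabpc1 and Eef1a1. Phlda2, an imprinted gene that restrains placental growth, had 1912, 1903 and 1446 CPM at D3 and 807, 609 and 529 CPM at D8. For Eef1a1, a translation elongation factor, the log2 difference was -0.14 ± 0.06 (SE; edgeR adjusted p = 0.047), and 11 of 15 alternatives lost the call, among them leaving out any 1 library other than D8 replicate 3.

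Naive pluripotency genes rose. Of 27 tested, 25 were called higher, none lower, and Gbx2 and Sox15 were not called. At least 2-fold higher were 22, and the list's median log2 difference was 3.70 against 0.07 over all genes. The 25 include Manba, which the lysosomal list below also counts. Nanog (chr6:122707489-122714633, plus strand in GRCm38) had 4.76, 4.28 and 3.63 CPM at D3 and 207, 283 and 346 CPM at D8. All D8 libraries lay far above all D3 libraries, with a log2 difference of 6.04 ± 0.20 (SE; edgeR adjusted p = 4.4e-14). Zfp42, also called Rex1 and a standard naive marker, had 0.881, 1.15 and 1.33 CPM at D3 and 40.3, 56.0 and 87.3 CPM at D8, or 54.7-fold higher. Esrrb, an orphan nuclear receptor of the naive network, had 23.9, 23.9 and 24.0 CPM at D3 and 133, 167 and 261 CPM at D8. The groups did not overlap, and the log2 difference was 2.96 ± 0.29 (SE; edgeR adjusted p = 2.3e-07).

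Klf4 and Tfcp2l1, naive factors under LIF and STAT3 control, were already present at D3. Klf4 had 69.7, 84.3 and 75.8 CPM at D3 and 109.8, 106 and 176 CPM at D8, 1.7-fold higher, and Tfcp2l1 had 90.9, 91.1 and 80.8 CPM at D3 and 239, 287 and 438 CPM at D8, 3.67-fold higher. Replicate 3 was the highest D8 library for both. Among the largest rises of the list, Dppa5a had 2.59, 2.13 and 1.70 CPM at D3 and 326, 402 and 599 CPM at D8, 207-fold higher. Nr0b1 (DAX1), a nuclear receptor that interacts with OCT4, had at most 0.179 CPM in any D3 library and 25.5, 37.7 and 41.7 CPM at D8. Prdm14, a repressor of primed genes, had at most 0.122 CPM in any D3 library and 14.7, 22.5 and 32.7 CPM at D8.

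Shared pluripotency factors split. Of 14 tested, 9 were called higher, 3 lower, and Sall4 and Zscan10 were not called, with a median log2 difference of 1.93. Pou5f1 (chr17:35506018-35510772, plus strand) had 15.6, 30.5 and 36.6 CPM at D3 and 75.2, 59.2 and 145 CPM at D8. The lowest D8 library exceeded the highest D3 library, with replicate 3 apart from the other two at D8, and the log2 difference was 1.75 ± 0.42 (SE; edgeR adjusted p = 0.0024). Sox2 had 12.1, 10.2 and 11.5 CPM at D3 and 72.8, 86.0 and 190.2 CPM at D8, again with replicate 3 apart from the other two, a log2 difference of 3.37 ± 0.33 (SE; edgeR adjusted p = 3.2e-07). Tdgf1 (Cripto), a Nodal co-receptor, had 21.0, 20.6 and 22.8 CPM at D3 and 219, 233 and 255 CPM at D8 and little spread, 11-fold higher. Foxd3, Dppa4 and Gdf3 rose by 5.17 ± 0.36, 4.54 ± 0.30 and 3.90 ± 0.26 (log2 ± SE).

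The 3 shared factors that fell were Lin28a, Trim71 and Utf1. Lin28a, which blocks maturation of the let-7 microRNA, had 236, 246 and 273 CPM at D3 and 11.6, 9.28 and 12.3 CPM at D8, 22.8-fold lower. It belongs to a set of RNA-binding proteins and chromatin factors of early embryonic cells in which 6 of 8 fell, 5 of them at least 2-fold, and none rose; Igf2bp2 and Hmga1 were not called. Hmga2 had 475, 395 and 422 CPM at D3 and 20.6, 24.2 and 23.8 CPM at D8, 18.8-fold lower, and Lin28b fell 14.5-fold. None of these overlapped between the days.

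Primed and neuroectoderm genes gave no common direction: 8 of 18 tested were higher, 9 lower and Otx2 was not called, with a median of -0.15. Otx2 had 0.359, 0.704 and 0.527 CPM at D3 and 0.293, 0.539 and 1.56 CPM at D8, against 85.2 ± 0.987 CPM in EpiSC, so neither day carried the primed level. Fgf5, the primed epiblast ligand, had 0.261, 0.168 and 0 CPM at D3 and 1.94, 1.26 and 0.927 CPM at D8 and was called higher (edgeR adjusted p = 1.4e-04), with a D3 mean too low for a fold, against 64.2 ± 5.07 CPM in EpiSC. Among members with at least 5 CPM, those that rose included Zic2 (11-fold), a zinc finger factor, Nodal (4.65-fold) and its antagonists Lefty1 (4.47-fold) and Lefty2 (6.06-fold). Those that fell included Sall2, Lef1, Sox11 and Sox3, lower by 17.9-fold, 15.1-fold, 12.3-fold and 7.74-fold.

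**Figure D1:**
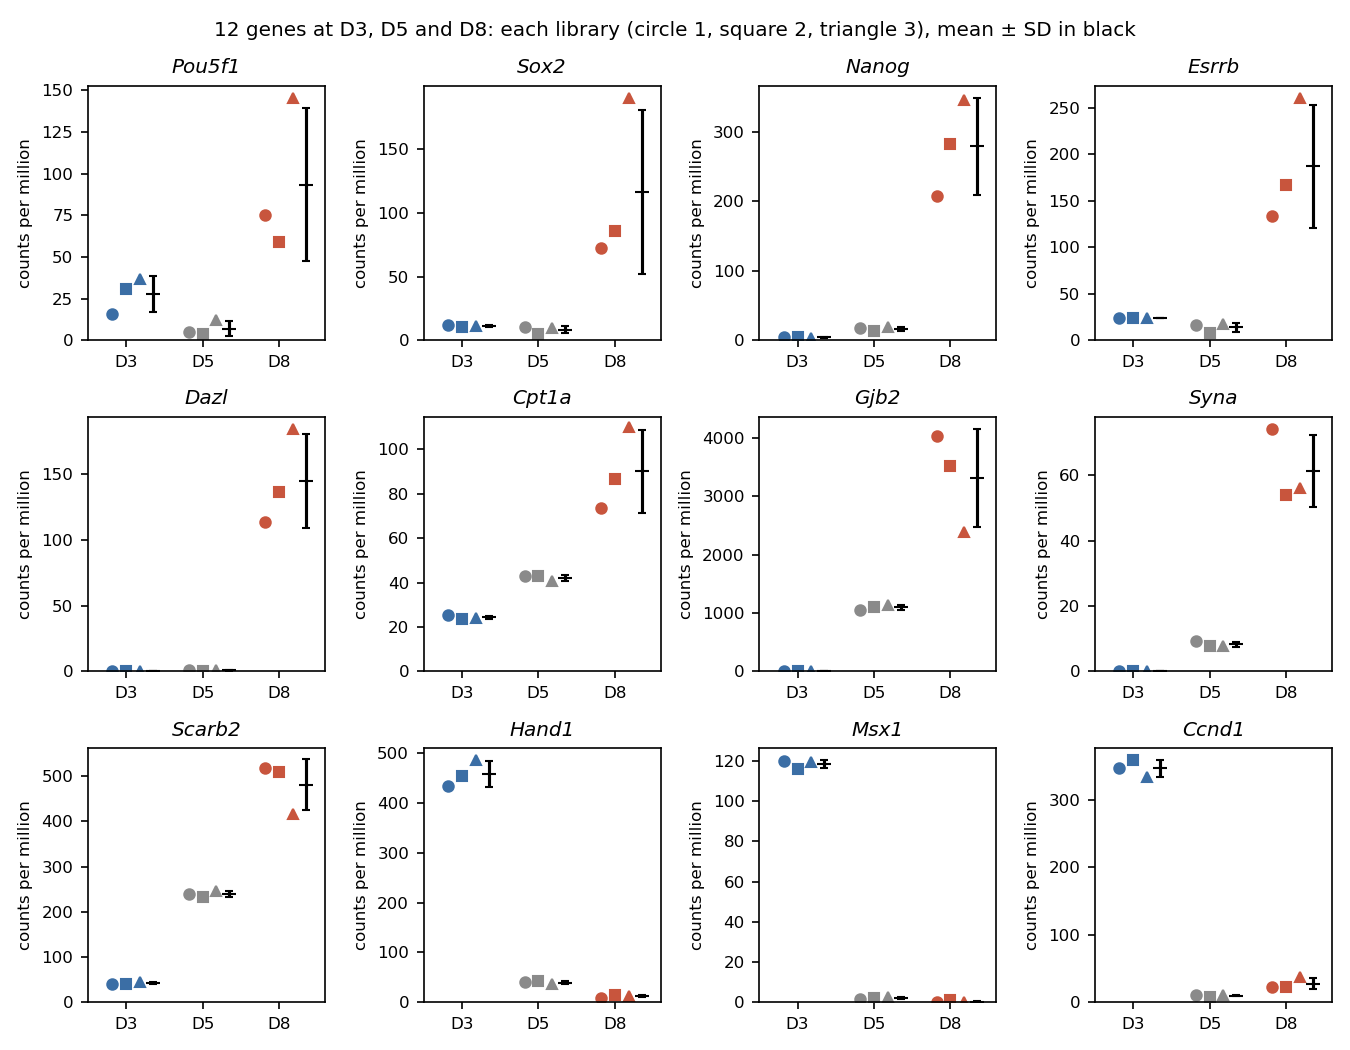
Levels of 12 genes in CPM (vertical axes, from 0, scales differ) in each library of D3, D5 and D8, with the mean and SD (n = 3) in black. Pluripotency, germline and placental genes sit high at D8, Hand1, Msx1 and Ccnd1 sit high at D3, and D8 replicate 3 (triangle) is the highest for Pou5f1, Sox2, Nanog, Esrrb, Dazl and Cpt1a but the lowest for Gjb2 and Scarb2.

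Promoter sequences of RefSeq (GRCm38.p6) were searched for an octamer, ATGCAAAT, and a SOX core, CATTGT, on both strands. Shown are the windows before the annotated start of Nanog and Zfp42, picked because they hold a match, which is in capitals: the SOX core in Nanog and the octamer in Zfp42.
Nanog (chr6:122707358-122707457, plus strand): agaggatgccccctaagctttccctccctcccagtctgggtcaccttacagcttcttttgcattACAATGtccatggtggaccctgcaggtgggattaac
Zfp42 (chr8:43307158-43307257, minus strand): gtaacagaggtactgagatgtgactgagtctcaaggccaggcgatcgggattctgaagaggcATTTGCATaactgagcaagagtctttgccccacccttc
As background, the Nanog promoter is known for a composite site bound by OCT4 and SOX2. The octamer was found in 1.9% of promoters of genes at least 2-fold higher, 1.3% of those at least 2-fold lower and 1.4% of all 17087 promoters of tested genes. For the SOX core the shares were 8.7%, 7.0% and 8.0%. A match is a description of letters and no measurement of binding.

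Germline genes, which are silenced by promoter methylation in most somatic cells, came on at D8. Of 16 tested, 15 were called higher, all at least 2-fold, none lower, with a median of 6.88; Tdrd1 was not called. Dazl (chr17:50279395-50293636, minus strand), an RNA-binding protein of germ cells, had 0.147, 0 and 0 CPM at D3 and 114, 136 and 184 CPM at D8. At D5 it had 0.995, 0.653 and 0.927 CPM. Hormad1, a protein of the meiotic chromosome axis, had no count in any D3 or D5 library and 15.6, 23.8 and 35.1 CPM at D8. Stk31 rose at least 60.3-fold, and Tex101 had at most 0.0612 CPM in a D3 library and 6.20, 4.07 and 10.3 CPM at D8. In rES, Dazl averaged 739 ± 19.3 CPM.

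Genes of the 2-cell-like state, a rare state of cultured stem cells that shares transcripts with the cleavage embryo, were called higher in 12 of 13 tested, with a median of 7.79. The level was low: Zscan4c, of a family of near-identical genes, averaged 2.69 ± 0.815 CPM at D8 (SD, n = 3) and had no count at D3. Asking for 1 CPM in D3 or D8 left 6 members called. Eif1a, a translation initiation factor and the only member with at least 5 CPM, had 331, 292 and 264 CPM at D3 and 488, 499.5 and 365 CPM at D8, 1.52-fold higher.

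Trophoblast regulators changed in both directions. Of 19 transcription factors tested, 4 were called higher, 7 lower and 8 were not called, with a median of -0.12. Over all genes tested 35.5% were called higher and 31.8% lower, so rises were scarcer in this list and falls about as common. Hand1 (chr11:57828705-57832818, minus strand), needed for giant cells and for the heart, had 434, 453 and 486 CPM at D3 and 9.80, 14.0 and 12.5 CPM at D8. The fall was by 37.8-fold, a log2 difference of -5.24 ± 0.33 (SE; edgeR adjusted p = 8.7e-09). Cdx2, the early trophoblast determinant, had 28.8, 30.3 and 33.3 CPM at D3 and 1.61, 1.99 and 1.37 CPM at D8, 18.6-fold lower. Ascl2 and Eomes, of trophoblast progenitors, fell 25.7-fold and 13.4-fold. Gcm1, which drives syncytiotrophoblast formation, had 2.06, 1.94 and 1.08 CPM at D3 and 41.5, 48.2 and 35.3 CPM at D8, 24.6-fold higher, and stood at 112, 87.1 and 104 CPM at D5. Gata3 rose 1.41-fold. Tfap2c averaged 202 ± 6.77 CPM at D3 and 179.5 ± 7.59 CPM at D8 and was not called.

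Placental differentiation genes mostly rose: 15 of 22 tested were called higher, 11 of them at least 2-fold, 4 lower and 3 not called, with a median of 1.41. Gjb2 (chr14:57098600-57104702, minus strand), the connexin of the placental exchange layer, had 13.2, 11.3 and 11.0 CPM at D3 and 4037, 3515 and 2388 CPM at D8. Between the days it rose 280-fold, a log2 difference of 8.13 ± 0.37 (SE; edgeR adjusted p = 6.6e-11). The fusion proteins Syna and Synb, envelope proteins of captured retroviruses that fuse trophoblast, had under 1 CPM in every D3 library. At D8 Syna had 74.2, 54.1 and 56.1 CPM and Synb 236, 229 and 152 CPM. Psg17, a pregnancy-specific glycoprotein, rose 44.8-fold. Plac8, Slc2a3 and Gjb5 were among the 4 that fell, by 13.6-fold, 1.95-fold and 1.94-fold. Krt7, a simple epithelial keratin, had 229.6, 284 and 298 CPM at D3 and 468, 404 and 336 CPM at D8. Its log2 difference was 0.57 ± 0.23 (SE; edgeR adjusted p = 0.036), and the call was lost under 7 of 15 alternatives, among them leaving out D3 replicate 1 or 2 or D8 replicate 1 or 2.

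The Serpinb9 family of protease inhibitors is expanded in rodents and expressed in placenta. Its list, which also holds the relatives Serpinb6a and Serpinb6c, was called higher in 10 of 11 members tested, with a median of 5.93. Serpinb6a was not called, so Serpinb6c is among the 10. Serpinb9e had 0.277, 0 and 0.228 CPM at D3 and 346, 317 and 206 CPM at D8. Serpinb9f and Serpinb9g reached 134, 124 and 79.4 CPM and 114, 109.5 and 70.5 CPM at D8 from at most 0.179 and 0.2 CPM. These genes are close copies, so values of single members are uncertain. The list's summed level was 210.1, 211 and 198 CPM at D3 and 1491, 1384 and 991 CPM at D8, without overlap.

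Imprinted genes, expressed from 1 parental copy and many of them placental, changed in both directions: 15 of 32 tested higher, 13 lower and 4 not called. Igf2, the growth factor, had 11490, 11860 and 12550 CPM at D3 and 11770, 11200 and 9278 CPM at D8 and was not called (log2 difference -0.15 ± 0.13 SE, edgeR adjusted p = 0.3). Its neighbour H19 had 1505, 1456 and 2255 CPM at D3 and 1405, 1800 and 1388 CPM at D8 and was not called either (log2 difference -0.18 ± 0.19 SE, edgeR adjusted p = 0.41). Both were far above their EpiSC means of 60.2 and 8.81 CPM on both days. Zim1, Slc22a18, Usp29 and Plagl1 rose 28.4-fold, 14.8-fold, 11.6-fold and 6.39-fold. Mest, whose product resembles a lipid hydrolase, had 354, 294 and 330.5 CPM at D3 and 11.8, 19.1 and 16.7 CPM at D8, 20.5-fold lower, and Magel2 and Ndn fell 14.1-fold and 3.33-fold.

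Primitive streak and mesoderm genes fell: 15 of 21 tested were called lower, all at least 2-fold, 3 higher and 3 not called, with a median of -2.75. Their summed level was 856, 890.3 and 939.6 CPM at D3 and 73.9, 96.4 and 91.6 CPM at D8. Msx1 and Hand1, described above, are members, and Hand1 alone made up 47.8% of the sum over D3 and D8. Evx1, of the posterior streak, had 16.6, 18.1 and 23.4 CPM at D3 and 0.374, 1.06 and 0.55 CPM at D8, 29.3-fold lower, and Isl1, of heart and limb progenitors, fell 23.5-fold. The streak markers T and Mixl1 were low already at D3, at 1.05 ± 0.173 CPM and 1.32 ± 0.394 CPM (SD, n = 3). Hand2 rose 4.13-fold, from 3.28, 3.98 and 5.90 to 14.7, 20.5 and 19.2 CPM.

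Hox genes, which pattern the body axis, were called lower in 28 of 38 tested, each at least 2-fold, and higher in 3, with a median of -2.83. Hoxd9 had 20.4, 23.4 and 24.5 CPM at D3 and 0.505, 0.611 and 1.37 CPM at D8, 27.5-fold lower. Hoxc9 had 11.0, 14.9 and 16.6 CPM at D3 and 0.13, 0.458 and 0.424 CPM at D8. Hoxb2 had 10.1, 11.0 and 11.6 CPM and Hoxb6 7.78, 5.75 and 5.87 CPM at D3, and both were under 1 CPM in every D8 library. Hoxc13 was higher at D8, by 5.53-fold. The summed Hox level was 177, 175 and 187 CPM at D3 and 53.8, 54.6 and 68.7 CPM at D8.

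Genes of the BMP, WNT, FGF and Notch pathways were mostly lower at D8. In the BMP list 13 of 24 were called lower, 3 higher and 8 not called (median -2.07). Id1, a direct target of BMP and SMAD signalling, had 211, 261 and 273 CPM at D3 and 19.2, 17.1 and 12.6 CPM at D8, 15.3-fold lower, and Id3 fell 15-fold. The ligand gene Bmp4 was not called (8.36 ± 0.858 CPM at D3, 6.98 ± 1.33 CPM at D8). In the WNT list 16 of 26 were lower, 6 higher and 4 not called (median -1.36). The ligands Wnt6 and Wnt3 fell 160-fold and 17.3-fold and the factor Lef1 fell 15.1-fold, whereas the target Sp5 rose 6.73-fold and Cdx1 rose 2.23-fold, from 11.7, 13.6 and 12.2 to 21.4, 19.7 and 42.8 CPM.

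In the FGF and ERK response list 14 of 18 were called lower, 13 of them at least 2-fold, and 1 higher (median -2.16). Etv4, an ETS factor induced by ERK, had 46.5, 61.5 and 66.2 CPM at D3 and 0.895, 0.58 and 1.43 CPM at D8, 60-fold lower. The feedback gene Spred3 fell 26.9-fold and Fosl1 fell 36.7-fold. The member that rose was Etv5, with 72.8, 73.0 and 76.9 CPM at D3 and 97.3, 125 and 183 CPM at D8, 1.82-fold higher; replicate 3 was the highest at D8. Notch pathway genes were lower in 12 of 15 and higher in 1 (median -1.59). The ligand Dll4 and the targets Nrarp and Hey1 fell 10.8-fold, 10.3-fold and 4.91-fold, the receptor Notch3 fell 2.06-fold, and the ligand Jag1 rose 1.68-fold.

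LIF and STAT3 pathway genes were called higher in 7 of 15, lower in 4 and not called in 4 (median 0.35). The targets Pim1 and Pim3 rose 6.21-fold and 3.26-fold, Pim1 from 32.0, 31.5 and 34.4 to 182, 180.1 and 246 CPM. The feedback inhibitor Socs3 had 69.3, 84.0 and 97.5 CPM at D3 and 53.7, 47.2 and 58.2 CPM at D8 and fell 1.58-fold. Stat3 itself had 134, 136 and 156 CPM at D3 and 126, 131 and 118 CPM at D8, a log2 difference of -0.18 ± 0.07 (SE; edgeR adjusted p = 0.029). Its call was lost with RLE scaling, by DESeq2, in the fit of the 6 libraries alone and without D3 replicate 3, D8 replicate 1 or D8 replicate 3. In the fit of the 6 libraries alone, and without D3 replicate 3, only 2 members of the list were called lower. Among Hippo pathway genes 10 of 16 were higher, 1 lower and 5 not called (median 0.78). Ccn2, a target of YAP and TEAD, rose 5.56-fold, the coactivator Wwtr1 rose 3.1-fold, and Tead1 fell 2.14-fold. Those not called were Ccn1, Ankrd1, Ajuba, Tead2 and Tead4.

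**Figure D2:**
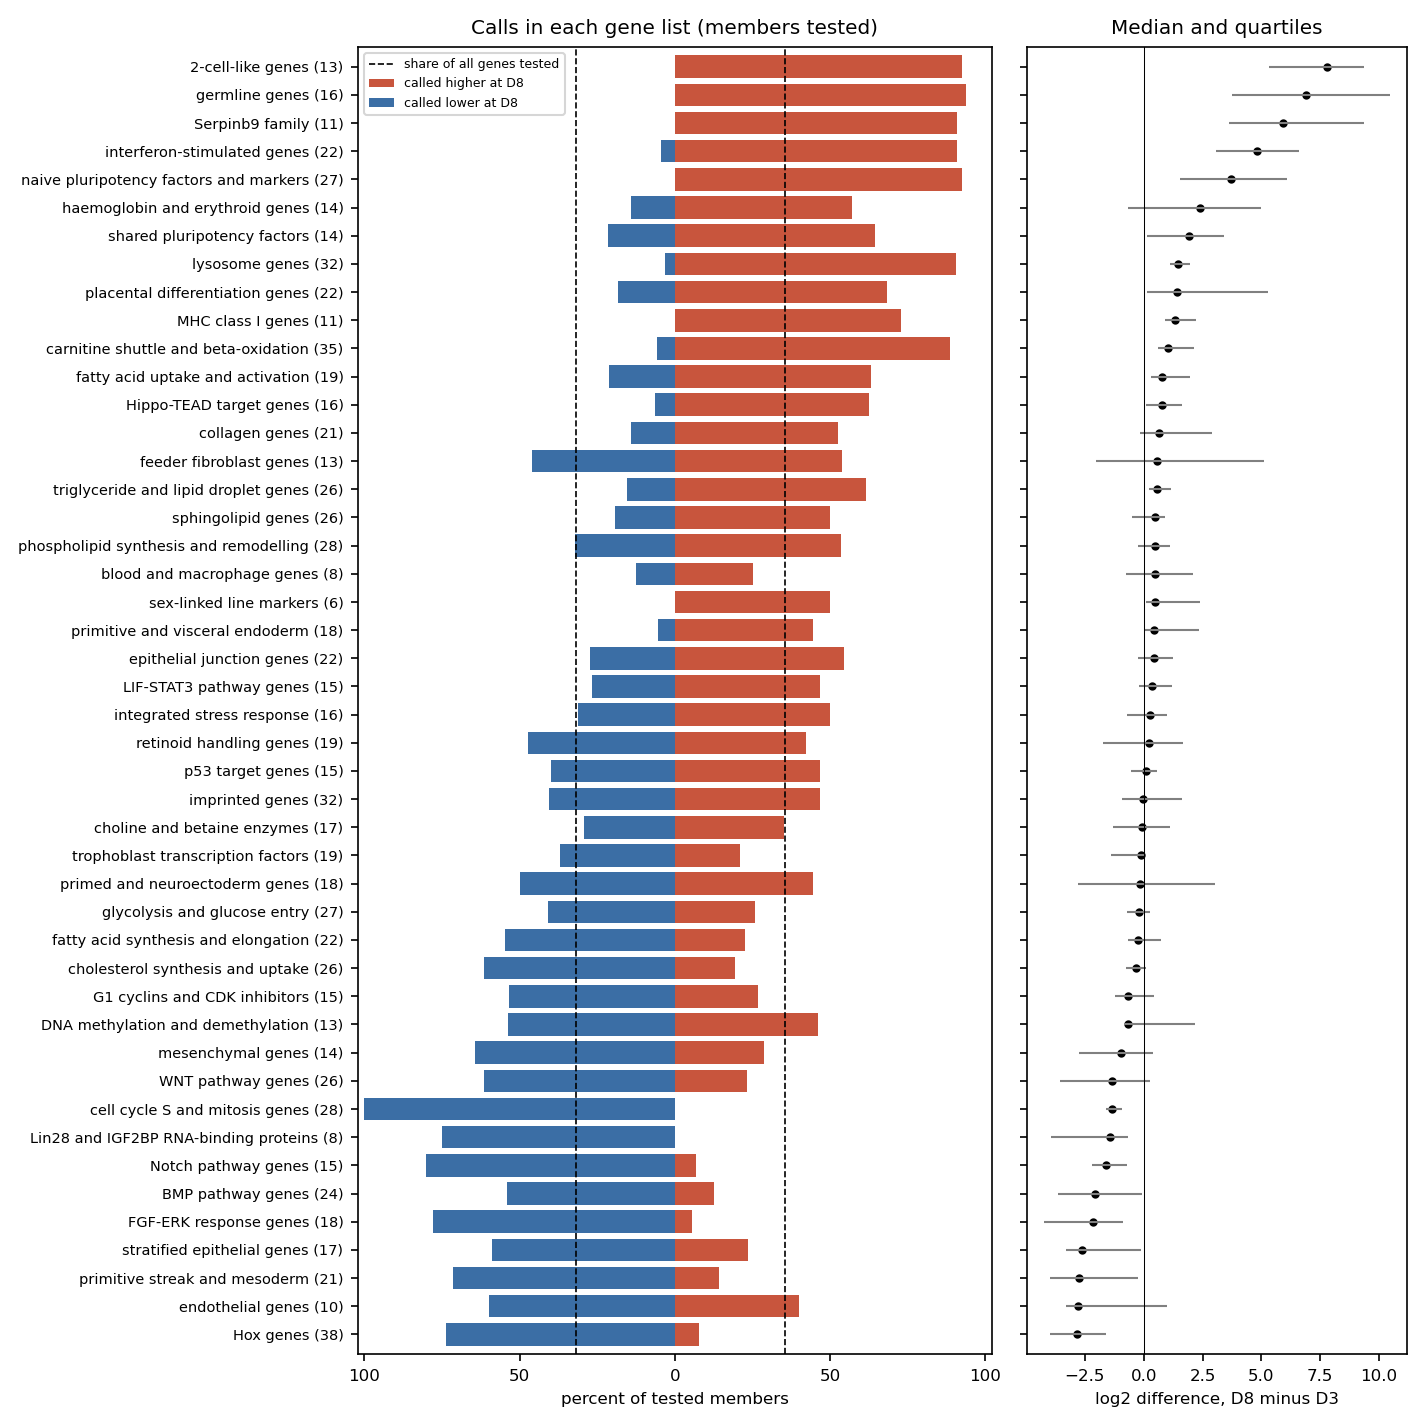
For each of 46 gene lists (number of tested members in brackets), the percent of members called higher (red, right) or lower (blue, left) at D8, with dashed lines at the shares of all genes tested (35.5% and 31.8%), and the median log2 difference with quartiles. Germline, 2-cell-like, Serpinb9, interferon and naive lists stand at the top, and Hox, endothelial and streak lists at the bottom.

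Markers of cell types that are neither pluripotent nor trophoblast were present and moved with the comparison; their part in the other results was not tested. Fibroblast and matrix genes, which feeder cells would carry, were called higher in 7 of 13 and lower in 6. Their summed level was 612, 634 and 783 CPM at D3 and 1291, 2037 and 1511 CPM at D8, with replicate 2 the highest. Lum, a proteoglycan of connective tissue, had 0.881, 0.352 and 0.941 CPM at D3 and 64.5, 169.8 and 93.1 CPM at D8. Postn rose 184-fold and Dcn 41.7-fold, while Thy1, a surface marker of fibroblasts, fell 29.1-fold and Pdgfrb fell 5.19-fold. Col1a1 averaged 404 ± 64.6 CPM at D3 and 605 ± 92.9 CPM at D8 (SD, n = 3). Of 21 collagens 11 were higher and 3 lower, but 7 higher without D3 replicate 2 and 7 without D8 replicate 2; Col3a1 had 16.8, 13.4 and 20.0 CPM at D3 and 169.5, 387 and 207 CPM at D8.

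The embryonic globins Hba-x and Hbb-bh1, made by primitive red cells, were higher at D8 than at D3 and highest at D5. Of 14 haemoglobin and erythroid genes tested, 8 were called higher, 2 lower and 4 not called (median 2.40). Hba-x, the embryonic alpha chain, had 0.375, 0 and 0 CPM at D3 and 17.6, 31.8 and 31.9 CPM at D8, and 111, 96.6 and 108 CPM at D5. Hbb-bh1, an embryonic beta chain, had 0.179, 0.0612 and 0 CPM at D3 and 2.64, 3.50 and 4.31 CPM at D8, and 25.2, 28.0 and 39.3 CPM at D5. Hbb-y had no count at D3 and 3.06, 12.7 and 6.11 CPM at D8. Hba-a1 and Hba-a2 are near-identical, and their values traded places between libraries: at D5 Hba-a1 had 129, 26.8 and 149 CPM and Hba-a2 2.90, 120.5 and 4.25 CPM. Hba-a1 was not called by limma-voom (adjusted p = 0.12). The regulators Klf1 and Gfi1b were not called, and the regulator Tal1 fell 5.57-fold.

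All 10 endothelial genes were called, 4 higher and 6 lower (median -2.81), and their summed level was 179, 172 and 209 CPM at D3 and 191, 204 and 238 CPM at D8. Cdh5, the cadherin of endothelial junctions, had 36.4, 38.2 and 46.1 CPM at D3 and 5.83, 3.21 and 3.88 CPM at D8, 9.34-fold lower. Kdr, the VEGF receptor, fell 6.8-fold and Tie1 fell 9.88-fold. Pecam1, also expressed by naive stem cells, had 34.3, 31.1 and 40.6 CPM at D3 and 66.9, 74.8 and 105 CPM at D8, 2.33-fold higher. Vwf rose 28-fold, to a mean of 21.5 CPM, and Tek 3.44-fold, to 13.6 CPM. Both were also present in the naive groups, Vwf at 20.8 CPM in rES and 26.1 CPM in ESC, and Tek at 38.9 and 10.5 CPM. Flt1, the remaining gene called higher, averaged 84.1 CPM at D8 and under 1 CPM in rES and ESC. Of 8 blood and macrophage genes, 2 were higher, 1 lower and 5 not called. Csf1r, a receptor shared by macrophages and trophoblast, had 13.9, 17.7 and 13.7 CPM at D3 and 249, 229 and 176 CPM at D8, 14.4-fold higher. Cd68, a lysosomal protein gene used as a macrophage marker, averaged 4.06 ± 0.241 CPM at D3 and 20.7 ± 3.75 CPM at D8 (SD, n = 3), 5.1-fold higher. Ptprc (CD45), the defining surface gene of white blood cells, averaged 0.126 ± 0.11 CPM at D3 and 0.0238 ± 0.0411 CPM at D8, and Itgam and Lyz2 were under 1 CPM on average on both days.

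Endoderm genes were called higher in 8 of 18, lower in 1 and not called in 9 (median 0.43). Lama1, of the basement membrane, had 22.4, 20.7 and 25.9 CPM at D3 and 254, 196 and 228 CPM at D8, 9.83-fold higher; Gata4 rose 5.76-fold, Gata6 1.69-fold and Dab2 5.39-fold. Sox17 and Foxa2 were not called, at 8.78 ± 1.24 CPM and 3.12 ± 0.851 CPM at D8. Epithelial junction genes were higher in 12 of 22 and lower in 6 (median 0.42). The claudin Cldn4 had 323, 389.9 and 426 CPM at D3 and 1913, 1643 and 1401 CPM at D8, 4.35-fold higher, whereas Cldn6 and Cldn7 fell 2.15-fold and 2.08-fold and Tjp1 fell 1.65-fold. Stratified epithelial genes were lower in 10 of 17 and higher in 4 (median -2.60). The basal keratin Krt5 had 12.6, 14.7 and 19.1 CPM at D3 and 0.505, 0.234 and 0.377 CPM at D8, while Trp63, the regulator of basal cells, rose 3.14-fold. Mesenchymal genes were lower in 9 of 14 and higher in 4: Snai1 and Twist1, which repress epithelial genes, fell 13.3-fold and 8.97-fold, and Tagln, of contractile cells, rose 6.66-fold.

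Genes of carnitine handling and beta-oxidation rose: 31 of 35 tested were called higher, 18 at least 2-fold, and 2 lower, with a median of 1.05. The summed level was 1220, 1235 and 1276 CPM at D3 and 3134, 2828 and 2581 CPM at D8. Cpt1a (chr19:3322334-3385733, plus strand) had 25.2, 23.8 and 23.9 CPM at D3 and 73.5, 86.8 and 110.3 CPM at D8. The groups did not overlap, replicate 3 was the highest at D8, and the log2 difference was 1.89 ± 0.11 (SE; edgeR adjusted p = 1.8e-11). Cpt2, which releases the fatty acid from carnitine inside the mitochondrion, had 50.7, 47.2 and 40.4 CPM at D3 and 96.9, 82.4 and 64.3 CPM at D8. Here replicate 3 was the lowest D8 library, and the log2 difference was 0.82 ± 0.12 (SE; edgeR adjusted p = 9.2e-06). The muscle form Cpt1b had under 0.1 CPM in every D3 library and 6.58, 6.16 and 6.57 CPM at D8. The carnitine importer Slc22a5 rose 6.97-fold, Acad10 6.52-fold and the nuclear receptor Pparg 18.7-fold, from 10.1, 9.61 and 8.41 to 215, 180 and 129 CPM. Ppard and the hydratase Echs1 were the 2 that fell, by 1.36-fold and 1.18-fold; Ppara and Acox2 were not called.

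Fatty acid synthesis genes were lower in 12 of 22 and higher in 5 (median -0.23). Fasn, the synthase, averaged 1836 ± 118 CPM at D3 and 1170 ± 25.7 CPM at D8 and Acaca, which makes its substrate, 265 ± 9.48 CPM and 166 ± 17.0 CPM (SD, n = 3), both called lower. Acacb, the carboxylase whose product inhibits CPT1, had 8.56, 9.38 and 10.2 CPM at D3 and 37.1, 34.6 and 40.5 CPM at D8, 3.99-fold higher. The desaturase Scd1 rose 2.78-fold, and the desaturases of polyunsaturated fatty acids Fads1 and Fads2 fell 2.4-fold and 1.72-fold. Elongases moved apart, with Elovl1 higher by 2.08-fold and Elovl2 and Elovl4 lower by 3.88-fold and 2.52-fold. Fatty acid uptake and activation genes were higher in 12 of 19, among them Slc27a1 (5.64-fold), the binding protein Fabp3 (4.05-fold) and the lipase Lpl (3.67-fold). In that list 4 were called lower, but 2 under 9 of 15 alternatives, leave-outs of each library except D8 replicate 2 among them.

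Triglyceride and lipid droplet genes were higher in 16 of 26 and lower in 4 (median 0.56). Plin4, a droplet coat protein, had 0.555, 0.352 and 0.641 CPM at D3 and 53.4, 50.4 and 40.9 CPM at D8, 93.5-fold higher. Gpat3, which starts glycerolipid synthesis, had 52.9, 51.0 and 44.5 CPM at D3 and 192, 182 and 137 CPM at D8, 3.44-fold higher, Pnpla3 and Cidea rose 9.33-fold and 8.02-fold, and the acyltransferase Mogat2 fell 8.21-fold. Phospholipid genes were higher in 15 of 28 and lower in 9 (median 0.49). Cds1, of the CDP-diacylglycerol branch, and Chpt1, of phosphatidylcholine synthesis, rose 3.34-fold and 3.1-fold. The acyltransferases Mboat1 and Lpcat4 fell 5.63-fold and 3.24-fold. Sphingolipid genes were higher in 13 of 26 and lower in 5 (median 0.49), with the ceramide synthase Cers2 2.72-fold and the ceramidase Acer2 7.28-fold higher and Smpd3 10-fold lower.

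Cholesterol genes were lower in 16 of 26 and higher in 5 (median -0.32). The synthesis enzymes Idi1, Nsdhl and Lss fell 2.56-fold, 2.44-fold and 2.25-fold, while Fdft1 and Sqle were not called. The members that rose were led by the sterol exporters: Abca1 had 87.3, 85.7 and 83.2 CPM at D3 and 787, 913 and 623 CPM at D8, 9.07-fold higher, and Abcg1 had 68.6, 77.5 and 79.0 CPM at D3 and 379, 415 and 301 CPM at D8, 4.86-fold higher. Both are known targets of liver X receptors. Of 17 choline and betaine genes, 6 were higher and 5 lower, near the shares of all genes tested (35.5% and 31.8%). The choline dehydrogenase Chdh had 30.1, 26.8 and 32.9 CPM at D3 and 71.9, 60.6 and 61.9 CPM at D8. Bhmt and Dmgdh rose 17.7-fold and 12.4-fold from D3 levels under 1 CPM. The mitochondrial folate enzymes Shmt2 and Mthfd2 fell 2.89-fold and 2.66-fold.

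Glycolysis and glucose entry genes were lower in 11 of 27, higher in 7 and not called in 9 (median -0.18). Pkm, Pgk1, Pgam1 and Ldha fell 2.14-fold, 2.19-fold, 2.42-fold and 2.23-fold. Ldhb, the lactate dehydrogenase subunit of oxidative tissues, had 40.8, 39.4 and 44.6 CPM at D3 and 497, 455 and 329.6 CPM at D8, 10.3-fold higher, and the monocarboxylate transporter Slc16a1 rose 3-fold. Slc2a1 is described above. Genes of the integrated stress response were higher in 8 of 16 and lower in 5 (median 0.26). The serine synthesis enzymes Phgdh and Psat1 fell 5.74-fold and 3.61-fold, while Ddit3 and Asns rose 5.54-fold and 3.67-fold. Vldlr, a lipoprotein receptor listed with them, had 10.7, 9.05 and 9.31 CPM at D3 and 221, 217 and 159 CPM at D8, 20.5-fold higher. Atf4 was not called.

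All 28 genes of S phase and mitosis were called lower, 20 of them at least 2-fold, with a median of -1.36, and their summed level was 6123, 5946 and 5753 CPM at D3 and 2069, 2302 and 2986 CPM at D8. Plk1, a mitotic kinase, had 220, 251 and 252 CPM at D3 and 38.0, 36.5 and 70.3 CPM at D8, a log2 difference of -2.32 ± 0.19 (SE; edgeR adjusted p = 6.9e-09). Rrm2, which supplies deoxynucleotides, had 388, 378 and 356 CPM at D3 and 85.9, 91.8 and 123 CPM at D8, 3.73-fold lower. Replicate 3 was the highest D8 library for 27 of the 28. Of 15 G1 genes 8 were lower and 4 higher. Ccnd1, cyclin D1, had 347, 359.5 and 335 CPM at D3 and 23.3, 23.3 and 37.2 CPM at D8, a log2 difference of -3.64 ± 0.14 (SE; edgeR adjusted p = 9.4e-14), and Ccnd2 fell 15.7-fold. Rb1, the retinoblastoma protein that holds cells in G1, had 14.1, 10.7 and 7.78 CPM at D3 and 165, 167 and 109 CPM at D8, 13.5-fold higher. The CDK inhibitors Cdkn1b and Cdkn1c rose 2.8-fold and 4.33-fold, and Cdkn1a was not called. Among p53 targets 7 of 15 were higher and 6 lower; Sesn1 had 13.4, 13.8 and 13.6 CPM at D3 and 191, 182 and 166 CPM at D8, 13.2-fold higher.

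The CHR element, TTTGAA, known from promoters of mitotic genes, was searched after the fall of these genes had been seen. It was found in 10 of 25 promoters of the list (40.0%) and in 12.7% of all promoters of tested genes. Among genes at least 2-fold lower the share was 13.1%, and among genes at least 2-fold higher 14.0%. The windows below are those of the 2 members with a match before a start and the largest fall, with the element in capitals on either strand.
Mki67 (chr7:135716442-135716541, minus strand): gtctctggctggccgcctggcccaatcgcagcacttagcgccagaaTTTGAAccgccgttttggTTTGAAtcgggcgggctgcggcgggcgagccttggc
Top2a (chr11:99024190-99024289, minus strand): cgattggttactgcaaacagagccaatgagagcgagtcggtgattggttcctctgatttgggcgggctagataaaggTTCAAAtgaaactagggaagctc
Mki67, the gene of the proliferation antigen Ki-67, averaged 253 ± 48.2 CPM at D3 and 79.8 ± 14.4 CPM at D8, and Top2a, a topoisomerase of dividing cells, 607 ± 73.6 CPM and 202 ± 43.8 CPM (SD, n = 3).

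Lysosomal genes rose: 29 of 32 tested were called higher, 27 at least 2-fold, and only Gusb lower, with a median of 1.47. The summed level was 4037, 4092 and 4085 CPM at D3 and 14570, 13190 and 11180 CPM at D8. Scarb2, a membrane receptor that delivers an enzyme to lysosomes, had 41.8, 41.7 and 44.9 CPM at D3 and 518, 509 and 417 CPM at D8. The groups did not overlap, and the log2 difference was 3.49 ± 0.08 (SE; edgeR adjusted p = 5.7e-16). Psap, the precursor of sphingolipid activators, rose 3.77-fold. The cathepsin gene Ctsc had 1.48, 1.02 and 0.656 CPM at D3 and 15.7, 19.7 and 27.6 CPM at D8. Gusb fell 1.47-fold, and Ctsh and Tfe3 were not called.

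The CLEAR E-box, TCACGTG, bound by TFEB-family factors at lysosomal genes, was likewise searched after the list's rise had been seen. It stood in 7 of 32 promoters of the list (21.9%) and in 5.3% of all promoters; among genes at least 2-fold higher the share was 5.5%. The 3 members with a match before a start and the largest rise are shown in capitals at the box; matches on both strands that overlap are merged, so a marked stretch can be longer than the 7 letters searched.
Ctsa (chr2:164833673-164833772, plus strand): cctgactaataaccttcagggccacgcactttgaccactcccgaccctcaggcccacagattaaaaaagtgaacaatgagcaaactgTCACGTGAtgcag
Ctsd (chr7:142387889-142387988, minus strand): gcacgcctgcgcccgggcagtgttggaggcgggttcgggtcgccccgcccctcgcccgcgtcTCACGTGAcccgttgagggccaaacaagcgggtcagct
Gla (chrX:134601156-134601255, minus strand): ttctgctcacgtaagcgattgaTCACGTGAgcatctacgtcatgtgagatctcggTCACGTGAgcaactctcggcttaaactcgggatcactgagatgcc
Ctsa averaged 110.5 ± 1.87 CPM at D3 and 381 ± 31.5 CPM at D8, Ctsd 700.2 ± 27.1 CPM and 1974 ± 205 CPM, and Gla 22.7 ± 0.725 CPM and 61.7 ± 5.34 CPM (SD, n = 3).

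Interferon-stimulated genes, which encode antiviral proteins, were called higher in 20 of 22, all at least 2-fold, with a median of 4.82; Ifitm1 fell 1.54-fold and Irf1 was not called. The summed level was 214, 196 and 220 CPM at D3 and 2438, 2418 and 2044 CPM at D8. Oas1a, a sensor of double-stranded RNA, had 0.326, 0.597 and 0.542 CPM at D3 and 88.4, 91.4 and 88.8 CPM at D8, a log2 difference of 7.50 ± 0.18 (SE; edgeR adjusted p = 5.7e-16). Ifit1, which binds foreign RNA, had at most 0.163 CPM in a D3 library and 59.2, 66.8 and 43.6 CPM at D8, and 0 and 0.0998 CPM on average in rES and ESC. Isg15, a ubiquitin-like modifier, averaged 1.09 ± 0.441 CPM at D3 and 106 ± 4.68 CPM at D8 (SD, n = 3). MHC class I genes were higher in 8 of 11 and lower in none (median 1.33). H2-D1, a classical presenting molecule, had 33.9, 42.2 and 34.5 CPM at D3 and 137, 111 and 116 CPM at D8, 3.29-fold higher, and the peptide transporter Tap1 rose 7.09-fold.

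The interferon-stimulated response element, searched as GAAA, any 2 bases and GAAA, was also added after these genes' rise had been seen. It was found in 10 of 19 promoters of the list (52.6%), in 3.0% of all promoters and in 4.2% of those of genes at least 2-fold higher. The 4 members with a match before a start and the largest rise are shown, with matches in capitals, overlapping ones merged.
Ifit3 (chr19:34583347-34583446, plus strand): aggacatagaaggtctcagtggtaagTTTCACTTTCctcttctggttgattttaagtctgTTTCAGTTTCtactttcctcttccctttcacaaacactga
Ifit1 (chr19:34640744-34640843, plus strand): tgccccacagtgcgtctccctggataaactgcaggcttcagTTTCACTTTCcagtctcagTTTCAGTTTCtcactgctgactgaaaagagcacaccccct
Oas1a (chr5:120907526-120907625, minus strand): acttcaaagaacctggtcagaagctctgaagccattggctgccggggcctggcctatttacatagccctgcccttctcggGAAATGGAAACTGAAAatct
Isg15 (chr4:156200845-156200944, minus strand): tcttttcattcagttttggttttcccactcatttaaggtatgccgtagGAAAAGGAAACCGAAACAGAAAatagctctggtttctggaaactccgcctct
In Ifit3 and Ifit1, neighbours on chromosome 19, the element occurred in 2 separate stretches. In Oas1a and Isg15 it formed 1 run of overlapping matches. In all, 11 motifs were searched in 8 gene sets, 8 of them chosen with the lists and 3 later, and no share was tested.

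The other 6 motifs of the first 8 gave shares among genes at least 2-fold higher, genes at least 2-fold lower and all tested genes as follows. The TFAP2 site GCCNNNGGC stood in 21.4%, 26.4% and 23.6% of promoters. The GATA site AGATAA stood in 9.7%, 5.8% and 7.3%. The TEAD site GGAATG stood in 14.8%, 13.9% and 12.9%. For the KLF site GGGTGTGG the shares were 4.3%, 4.2% and 3.8%, for the cAMP response element TGACGTCA 2.0%, 2.5% and 2.7%, and for the ESRRB site TCAAGGTCA 0.4%, 0.4% and 0.3%. All were read on both strands in the 250 bases before to 50 after each start.

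DNA methylation genes were all called, 6 of 13 higher and 7 lower. Tet1, which oxidizes methylcytosine, had 29.2, 25.1 and 22.6 CPM at D3 and 79.8, 97.7 and 172 CPM at D8, 4.55-fold higher. Tet2, of the same enzyme family, had 8.63, 6.58 and 5.05 CPM at D3 and 18.6, 38.6 and 54.8 CPM at D8, 5.54-fold higher. Replicate 3 was the highest D8 library for both. Dnmt3b, a de novo methyltransferase of primed cells, had 98.5, 104 and 112 CPM at D3 and 46.3, 52.8 and 63.1 CPM at D8, 1.94-fold lower, and Uhrf1, which guides maintenance methylation, fell 2.1-fold. Dnmt3l, a cofactor of germ cells, rose 4.6-fold. Retinoid genes split, 8 of 19 higher and 9 lower. The cellular binding proteins Crabp1 and Crabp2 fell 35.1-fold and 13.4-fold and the synthesizing enzyme Aldh1a3 fell 10.9-fold. The retinol uptake receptor Stra6, the dehydrogenase Rdh10 and the degrading enzyme Cyp26a1 rose 3.84-fold, 6-fold and 6.27-fold.

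D5 lies between the days, and the path between them was not always monotonic. Between D3 and D5, 5025 genes (28.6%) were at least 2-fold different, and between D5 and D8, 3142 (17.9%); the steps share the D5 libraries. Pou5f1 had 5.10, 3.62 and 12.3 CPM at D5, below every D3 and D8 library. Zscan10, a zinc finger partner of OCT4, had 24.7, 23.2 and 23.9 CPM at D3, 4.01, 2.37 and 2.58 at D5 and 26.6, 22.0 and 36.0 at D8, and was not called between D3 and D8. Eng, an endothelial co-receptor for TGF-beta family ligands, had 25.3, 24.3 and 27.8 CPM at D3, 0.722, 1.78 and 1.38 at D5 and 27.2, 22.4 and 45.4 at D8, and Mmrn2 and Cdyl2 likewise had their low point at D5. Ppp2r2c, a regulatory subunit of protein phosphatase 2A, had 106, 119 and 114 CPM at D3, 1.36, 1.23 and 2.02 at D5 and 17.3, 19.5 and 30.1 at D8. Fam131c had 11.1, 12.2 and 13.8, then 0.337, 0.425 and 0, then 1.27, 2.20 and 3.32 CPM on the 3 days.

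The genes picked for a high point at D5 were Hba-x and Hbb-bh1, given above, and 4 others. Evpl, envoplakin of the cornified envelope, had 17.8, 17.4 and 22.7 CPM at D3, 73.8, 76.1 and 65.7 at D5 and 24.3, 20.6 and 19.8 at D8. Cers3, which makes very long chain ceramides, had 1.83, 2.23 and 2.38 CPM at D3, 22.5, 24.2 and 21.7 at D5 and 4.25, 4.48 and 1.98 at D8. Mab21l4 had 2.66, 3.38 and 3.36 CPM at D3, 18.8, 22.7 and 22.0 at D5 and 4.69, 3.55 and 1.78 at D8. None of the last 3 was called between D3 and D8, although Cers3 was called without D8 replicate 3, with counts divided by 4, by limma-voom and by DESeq2. The coactivator Ppargc1b, which boosts mitochondrial genes, had 11.3, 9.76 and 10.2 CPM at D3, 43.5, 44.1 and 38.5 at D5 and 15.1, 11.3 and 11.9 at D8; its call between D3 and D8 was lost under 8 of 15 alternatives, among them without D3 replicate 2 or 3 or D8 replicate 1.

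**Figure D3:**
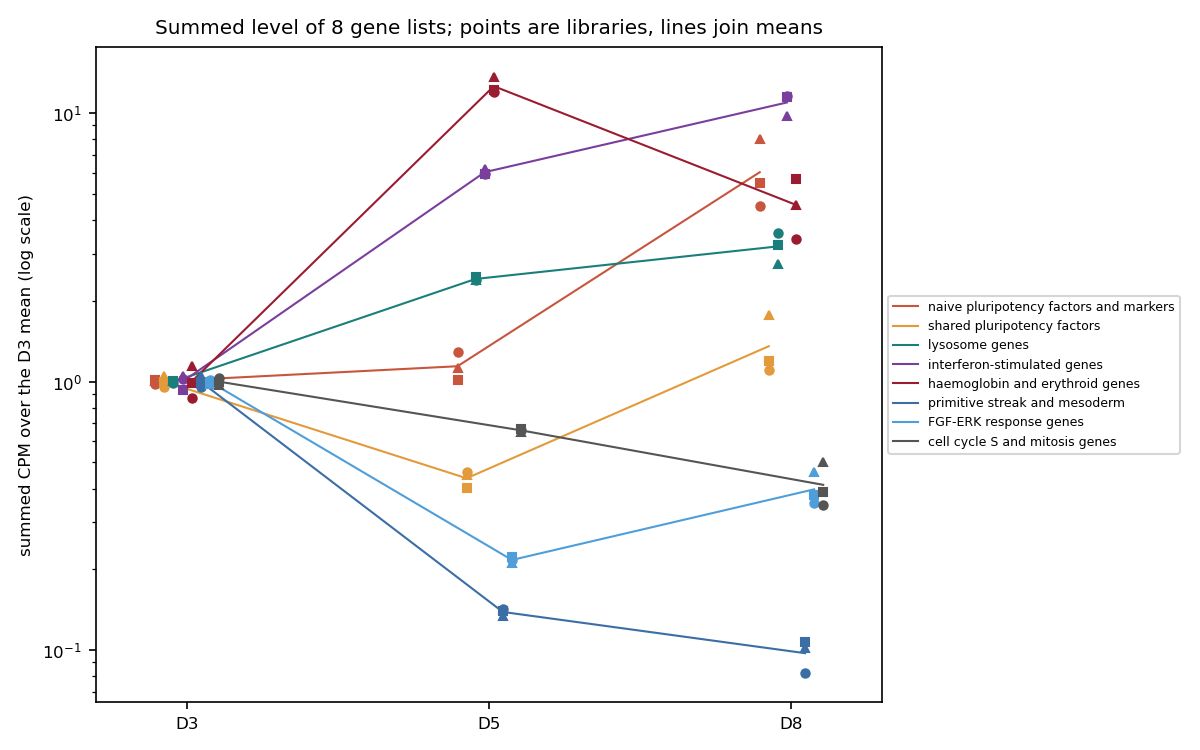
Summed CPM of 8 gene lists relative to the mean of the D3 libraries (log axis) in each library of D3, D5 and D8, with lines joining the group means and circles, squares and triangles for replicates 1, 2 and 3. Haemoglobin genes peak at D5, shared pluripotency factors dip at D5, naive genes rise mostly after D5, and streak and cell cycle genes fall.

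The 3 D8 libraries differed from each other by gene group, which bears on the spread behind every D8 value. Among members with at least 5 CPM, replicate 3 was the highest D8 library for 24 of 26 naive genes, 13 of 14 shared pluripotency factors, 8 of 9 germline genes and 27 of 28 cell cycle genes. It was the highest for 36.7% of the 10743 genes tested at that level. It was the lowest for 11 of 11 members of the Serpinb9 list, relatives included, and for 25 of 30 lysosomal genes, against 44.8% of all. The same held for 22 of 33 carnitine and beta-oxidation genes, 14 of 20 interferon-stimulated genes and 12 of 18 placental genes. Naive genes summed to 1915, 2331 and 3402 CPM at D8 and 416, 428 and 425 CPM at D3, and placental genes to 26830, 25640 and 18590 CPM and 12820, 11680 and 10630 CPM. Peg10 alone made up 63.9% of the placental sum over D3 and D8. Replicate 2 was the highest for 10 of 10 fibroblast genes and 10 of 13 collagens. Without D8 replicate 3 the counts were 6054 higher and 5545 lower.

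**Figure D4:**
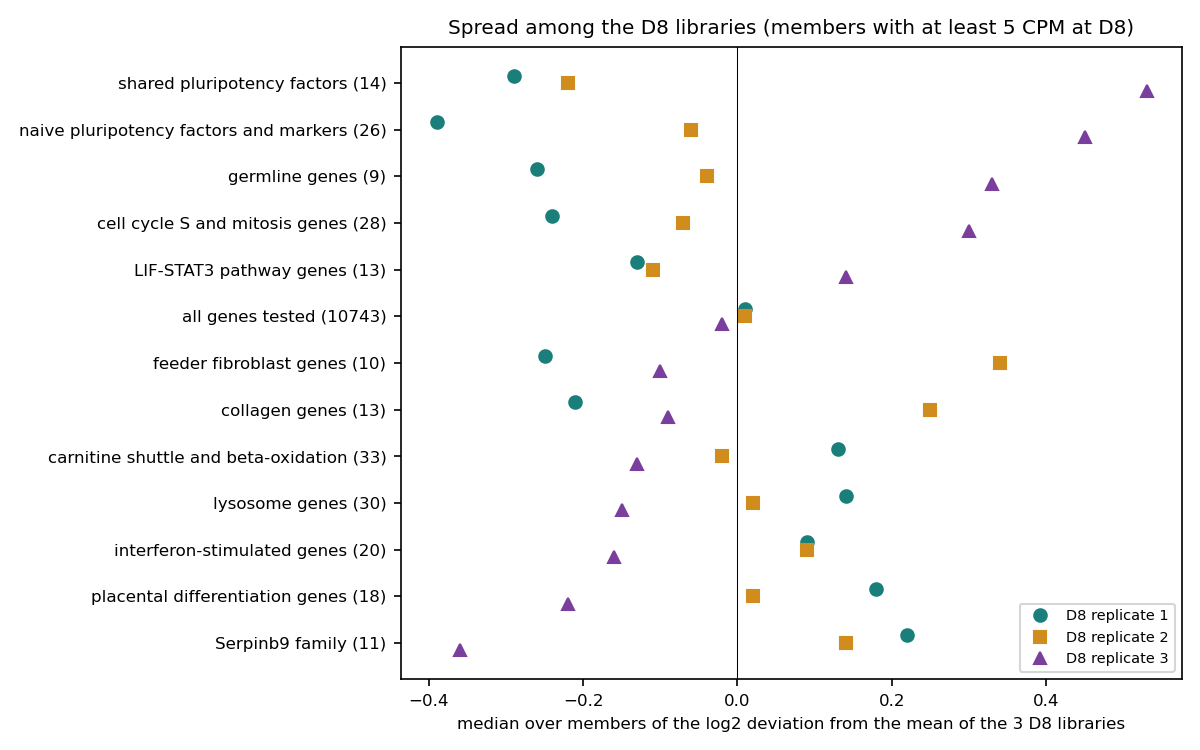
For 12 gene lists and all genes tested (number of members with at least 5 CPM at D8 in brackets), the median over members of each D8 library's log2 deviation from the mean of the 3 D8 libraries. Replicate 3 (triangle) lies to the right for pluripotency, germline and cell cycle lists and to the left for placental, lysosome and Serpinb9 lists, from 0.53 to -0.36, and replicate 2 (square) lies to the right for fibroblast and collagen lists.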

How the data were processed

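RNA from mouse cells was sequenced in 18 libraries, 3 per group, of which the 6 of D3 and D8 were compared. Per the labels' protocols, total RNA was depleted of ribosomal RNA and sequenced in paired reads. Per the submitters' processing notes, bcl2fastq, Trim Galore and HISAT2 were used with build mm10. The authors deposited unscaled expected counts as whole numbers by gene symbol. How reads were counted, with which annotation and strand, is not given in the sources used here: overlapping and antisense genes may share reads. Low counts bunch at multiples of 4, so 12 counts served as the floor, and bounds from it cover counting error only.

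All 18 libraries were fitted in 1 model with edgeR 4.0.16 in R 4.3.3, after filterByExpr (17545 of 25239 symbols kept) and TMM scaling (factors 0.945 to 1.05 in the 6 libraries), with the quasi-likelihood test of D8 minus D3 and Benjamini-Hochberg adjustment over all genes. The common biological coefficient of variation was 0.167. Standard errors came from each log2 difference and its F statistic. Folds are ratios of mean CPM. Steps were tested on simulated data. Alternatives were limma-voom (limma 3.58.1), DESeq2 1.42.0, RLE scaling, library totals, other count filters, counts divided by 4, D3 and D8 alone, a replicate block, a log2 difference of at least 2, and leaving out each library.

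Members and lists were chosen with earlier results of these data known. Named genes were 18 core genes, the 12 largest differences each way without overlap and with at least 10 CPM, and the 5 largest CPM gains and losses. Added were up to 4 called members each way per list with at least 5 CPM, and 6 genes with a high and 6 with a low point at D5. The D5 genes were ranked by the smaller log2 difference of the steps D3 to D5 and D5 to D8. For the 12 largest differences and the D5 genes, symbols that begin with Gm and a digit or end in Rik were skipped. A few other list members are given as means. The CHR, CLEAR and ISRE searches, the comparison among D8 libraries and the chromosome counts were added after seeing the data. Some genes that these rules name are not reported here. Gene positions are from GENCODE vM21 (GRCm38).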

Additional observations from a re-analysis of the deposited data

How the results depend on the processing

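Counts of genes called higher or lower stayed within 1.5 times under the 15 alternatives run. Against the genes at least 2-fold higher at D8 than D3 (3899), 2441 had a log2 difference of at least 2, and against the genes at least 2-fold lower at D8 than D3 (2667), 1127. Without 1 library at a time, 5799 to 6054 genes were higher and 5170 to 5545 lower. The fit with the replicate block called 6088 higher and 5510 lower; it changed 1 named call, that of Ppargc1b. The numbers are not shown to pair the samples, since residuals of same-numbered libraries correlated at -0.02, -0.015 and 0.012. Calls by DESeq2 were 6579 higher and 5359 lower, and by limma-voom 6660 and 6057. Of the list counts recomputed, 1005 values stayed within 1.5 times and 15 did not. With a mean of at least 1 CPM in D3 or D8, 6 of the 2-cell-like genes were higher, because fewer genes were tested, and 2 lower in each of the fatty acid uptake and triglyceride lists. The fatty acid uptake list also had 2 lower without a filter, with counts divided by 4 and by DESeq2. Without 1 library at a time, 2 to 3 fatty acid uptake genes were lower, 7 to 11 collagens higher and 2 to 4 LIF-STAT3 genes lower, 2 with D3 and D8 fitted alone; the cause was not tested. Among named genes 4695 values kept their side of the threshold, 68 lost the call and 6 gained it. None reversed where the main fit or the alternative called the gene. Changes of direction in genes called by neither were not counted. Counts of genes changed in opposite directions in the steps were not run, since the steps share D5, and D5 libraries were not left out. At this depth genes under about 0.2 CPM cannot be told from 0.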

Other observations

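Genes switched on outnumbered genes switched off, a count made after the data were seen. No D3 library had a count for 129 genes that had at least 1 CPM in every D8 library, and 11 genes showed the reverse. Of the 129, 27 lie on the X chromosome, where 696 of the 17545 tested genes lie, and 4 on the Y chromosome. The 11 lost genes were Chrdl1, Cnih3, Emcn, Evx2, Faim2, Gm44502, Il24, Krt90, Ldb2, Ly6h and Myct1, with mean D3 levels of 1.44 to 3.54 CPM. Emcn is an endothelial surface gene, Evx2 a homeobox gene and Krt90 a keratin. D8 libraries had 17662 to 18248 genes with a count and D3 libraries 16699 to 16810.

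On the X chromosome 35.5% of tested genes were at least 2-fold higher at D8, against 17.5% to 26.5% on the autosomes, and 18.4% were at least 2-fold lower, against 11.4% to 18.2%. Multicopy X families known from germ cells were among them. All 8 Magea genes tested were called higher, with a summed level of 0, 0.0612 and 0 CPM at D3, 10.4, 12.8 and 19.5 CPM at D8 and 7.59, 7.52 and 6.43 CPM in ESC. All 10 Xlr genes and all 7 Fthl17 genes were also called higher, and 16 of 22 Rhox genes, the homeobox cluster of reproductive tissues, whose sum was already 471, 407 and 380 CPM at D5. Reads may be split among such copies, so the sums are more reliable than the members.

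Of 12 Y-linked genes tested, 8 were at least 2-fold higher at D8, against 22.2% of all genes tested. Uba1y, a ubiquitin-activating enzyme gene, had 0.114, 0 and 0.0285 CPM at D3 and 29.2, 34.1 and 50.7 CPM at D8. Rbmy, an RNA-binding protein of spermatogenesis, had 0.114, 0.321 and 0.257 CPM at D3, 21.8, 20.6 and 35.1 CPM at D8, 5.39, 5.79 and 6.97 CPM in rES and 1.23, 1.54 and 1.02 CPM in ESC, so the D8 level was the highest of the 6 groups. Usp9y, Zfy1, Zfy2, Gm21693, Gm21704 and Gm21708 were the others, Zfy2 averaging only 0.238 CPM at D8. Gm21708 had no count in any EpiSC, D3, D5 or ESC library, and 0.79, 0 and 0 CPM in rES. It passed the count filter only through D8, so the share of 8 in 12 is in part set by that filter. Rbmy, Gm21693, Gm21704 and Gm21708 shared a profile, under 1 CPM on average at D3 and D5 and lower in rES than at D8. Whether they are separate signals was not tested. The broadly expressed Y genes Eif2s3y, Uty and Kdm5d were not called, Eif2s3y having 69.0, 68.0 and 68.3 CPM at D3 and 69.0, 70.8 and 74.6 CPM at D8. Ddx3y rose by 0.74 on the log2 scale. The genes in these 3 paragraphs were chosen after their values were seen.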
